A study of Saccharomyces cerevisiae EC1118 with 12 samples.

Results

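Transcript levels at intermediate oxygen, meaning 1% and 5% oxygen in the sparging gas, were set against both extremes, anaerobic and 20% oxygen. All 12 of 12 arrays entered, 6 intermediate and 6 extreme. For each of 5449 genes the mean of the 1% and 5% groups was compared with the mean of the anaerobic and 20% groups, so that a gene with its highest or lowest level in the middle of the oxygen range gives a large difference. The cells were the commercial wine yeast Saccharomyces cerevisiae EC1118, held at steady state in chemostats with limiting nitrogen, on a modified synthetic must at pH 3.5. Each group has 3 Affymetrix arrays: fully anaerobic cultures under nitrogen, and cultures sparged with nitrogen mixtures holding 1%, 5% or 20% oxygen. Nitrogen limitation, the medium and the strain were common to all 4 groups. The labels give conflicting dissolved oxygen values, so groups are named by their gas. Nor do they tell whether replicate arrays stem from separate chemostats: p-values here measure the spread between arrays only, and that may be technical.

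Yeast uses oxygen for respiration and also for single enzymatic steps in the synthesis of heme, sterols and unsaturated fatty acids. Heme serves as an oxygen signal: with heme, the activator Hap1 turns on respiratory genes and the repressor Rox1, which recruits the Cyc8-Tup1 corepressor to hypoxic genes. When sterols run low, Upc2 turns on sterol uptake and cell wall mannoprotein genes. These circuits are known mainly as switches between low and high oxygen. Nitrogen limitation sets the background in these cultures, since it limits ribosome production and favours recycling of nitrogen in the vacuole.

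Levels are deposited log2 values, on which a difference of 1 is a 2-fold change. Each difference is printed in log2 units with its standard error from limma, and a gene was called at a Benjamini-Hochberg adjusted p under 0.05 over all genes. Each array correlated at 0.94 to 0.992 with the mean of its group partners. The third 1% array stood apart: the SD of its deviations was 0.548, where the remaining 11 arrays had 0.189 to 0.399.

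The comparison asks which genes had their highest or lowest level at the oxygen between the extremes. Called genes that fell at intermediate oxygen included 15 of 103 ribosome biogenesis genes and INO1 of inositol synthesis. ADE6 of purine synthesis and GUT1 of glycerol use fell too. The repressor genes MIG1 and MIG2 fell mainly against anaerobic cultures. Called genes that rose included the riboflavin transporter gene MCH5 and 5 of 45 vacuole and autophagy genes, 4 of them with a peak at both levels. In all, 418 of 5449 genes were called (7.67%), 80 higher (1.47%) and 338 lower (6.2%), with adjusted p of 0.0252 or more. After quantile scaling 106 genes were called higher and 177 lower, and no call remained without anaerobic array 2 or 3, 5% array 1 or 2, or 20% array 1 or 3. Of the 418, 365 (87.3%) had a peak or a dip at both levels, meaning that the 1% mean and the 5% mean both lay outside the range of the anaerobic and 20% means. In such bulk cultures, fewer cells in a given state and less RNA per cell cannot be told apart. These 365 were 70 peaks (1.28% of all genes) and 295 dips (5.41%). Without regard to calls, 23.8% of all genes had means shaped as a peak at both levels and 26.9% as a dip at both. Selection for a large difference favours such means, so the share of 87.3% is no separate test of both levels. Another 47 called genes left the range of the extremes at 1 level only, and 6 lay between the extremes at both.

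A call in this comparison does not by itself show a difference from each extreme. The mean of the intermediate arrays differed from the anaerobic arrays in 1376 genes (25.3%), 543 higher (9.97%) and 833 lower (15.3%). Against the 20% arrays limma called 0 genes, with 498 (9.14%) at an unadjusted p under 0.05 and a smallest adjusted p of 0.0508. Of the 418 called genes, 412 were also called against anaerobic cultures. Those further from the anaerobic than from the 20% mean were 406 of the 418, against 3847 of all 5449 genes. The gap to 20% oxygen was thus the smaller side of nearly every peak and dip. Over the 295 dips the median difference was -1.28 from anaerobic and -0.46 from 20% oxygen, and 91 had an unadjusted p under 0.05 against 20%. Over the 70 peaks the medians were 0.86 and 0.39, and 36 had an unadjusted p under 0.05 against 20%. Peaks and dips were chosen by a contrast that includes the gap to 20%, and by means beyond the 20% mean. The sign of these gaps was thus fixed, and the counts are no separate test against 20%. No gene was called against each extreme.

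**Figure D1:**
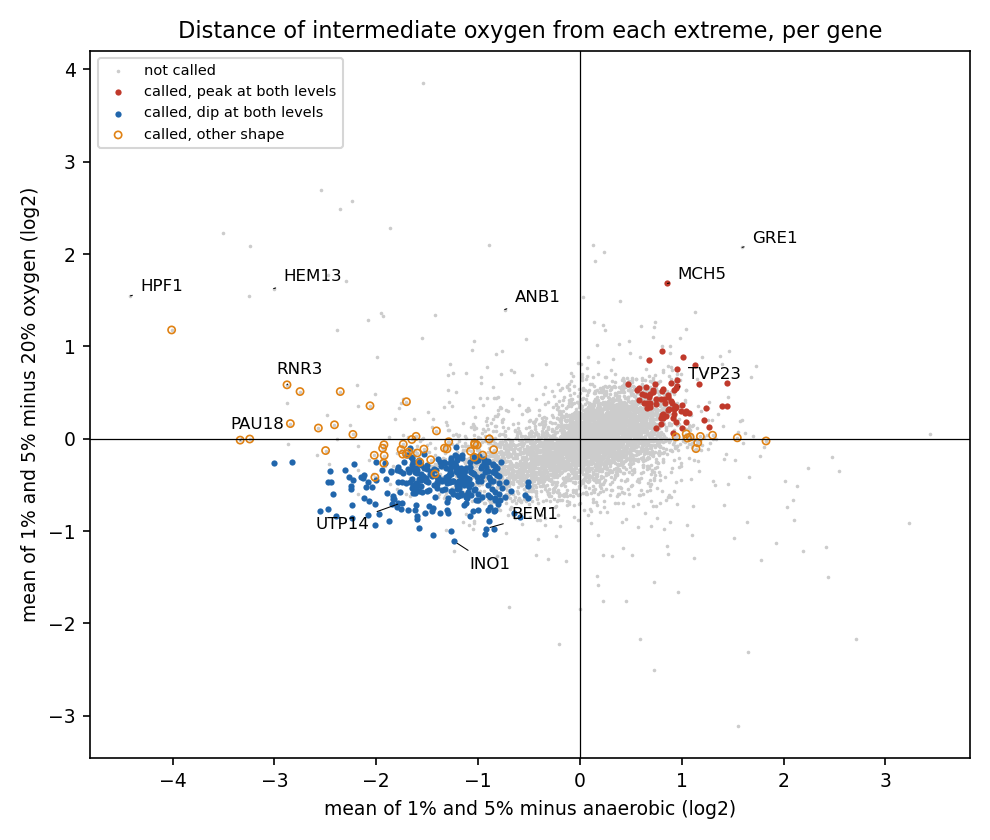
Each point is a gene, with the mean of the 1% and 5% arrays minus the anaerobic mean on the horizontal axis and minus the 20% mean on the vertical axis (both log2). The 70 called peaks lie upper right and the 295 called dips lower left, mostly far from the vertical zero line and near the horizontal one. Genes in the upper left, such as HPF1 and HEM13, step down with oxygen.

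The 1% and the 5% level were also tested apart, each against the mean of the extremes. Limma called 0 genes at either level, with 1475 genes (27.1%) at an unadjusted p under 0.05 at 1% and 1042 (19.1%) at 5%. The smallest adjusted p were 0.0882 and 0.0509. Of the 295 dips, 281 had an unadjusted p under 0.05 at both levels, 10 at 1% only and 4 at 5% only. Of the 70 peaks, 64 had one at both levels and 6 at 1% only. These counts follow largely from how the genes were chosen, by the mean of both levels. They are no separate test of each level. The median dip was -0.86 at 1% and -0.92 at 5%, and 111 of 295 were deeper at 1%. The median peak was 0.69 at 1% and 0.56 at 5%, and 57 of 70 were higher at 1%. No gene differed between 5% and 1% oxygen by limma (0 called, 265 genes or 4.86% at an unadjusted p under 0.05, smallest adjusted p = 0.12).

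The clearest peak was MCH5, which encodes the riboflavin importer of the plasma membrane. It read 9.67, 9.96 and 9.86 in the anaerobic arrays, 10.82, 10.95 and 10.11 at 1% oxygen, 10.54, 11.07 and 10.64 at 5%, and 9.37, 9.59 and 8.07 at 20%. Every intermediate array lay above every extreme array, and the lowest value was the third 20% array. MCH5 was higher at intermediate oxygen by 1.27 ± 0.25 (limma adjusted p = 0.0265), by 0.86 ± 0.31 against anaerobic cultures (adjusted p = 0.0608) and by 1.68 ± 0.31 against 20% (unadjusted p = 0.000156, adjusted p = 0.108). It was one of the few peaks with the larger gap on the 20% side. The differences at 1% (1.21 ± 0.31) and at 5% (1.33 ± 0.31) were alike in size, with 0.12 between them.

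FMN1, riboflavin kinase, which turns riboflavin into the cofactor FMN, was the other flavin gene that rose (0.56 ± 0.14, adjusted p = 0.0357). It read 7.66, 7.59 and 7.81 in the anaerobic arrays, 8.53, 8.20 and 8.76 at 1%, 7.99, 8.12 and 7.98 at 5%, and 7.79, 7.92 and 7.43 at 20%. The intermediate and extreme arrays did not overlap, and the peak was larger at 1% (0.80 ± 0.17) than at 5% (0.33 ± 0.17, unadjusted p = 0.0766), a gap that was not called (adjusted p = 0.884). In a list of 10 riboflavin and flavin cofactor genes, drawn up after these values were seen, 2 rose and 2 fell (median 0.24, against -0.01 for all genes). Over all genes 1.47% rose and 6.2% fell. Those that fell make riboflavin: RIB1, GTP cyclohydrolase II (-0.70 ± 0.19, adjusted p = 0.047), and RIB2, a deaminase of the pathway (-0.75 ± 0.16, adjusted p = 0.0275). Both were lower than in anaerobic cultures by 1.20 and more, and close to their 20% level, with differences of -0.20 ± 0.24 and -0.27 ± 0.20 from it. The other synthesis genes RIB3, RIB4, RIB5 and RIB7 had differences between -0.02 and 0.30 and were not called.

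Selection for a large difference also favours arrays that do not overlap, so counts of such genes are description only. Among the called peaks at both levels, 7 had no overlap between the 6 intermediate and the 6 extreme arrays, which was so for 14 of all genes in this direction (0.257%). Beside MCH5 and FMN1, those with a gene symbol and a level that was not dim (under 5.84, the bound of the lowest 25% of genes, in the higher group) were TVP23 and SKP1. TVP23, a Golgi membrane protein gene, had levels of 8.74 to 9.39 at intermediate oxygen against 7.83 to 8.72 in the extremes, and rose by 0.74 ± 0.14 (adjusted p = 0.0252). SKP1, an adaptor of SCF ubiquitin ligases, read 9.42 to 9.98 at intermediate oxygen against 8.99 to 9.39 in the extremes (0.50 ± 0.12, adjusted p = 0.0319). Their margins over the nearest extreme array were thin, and for both the 1% arrays were the highest.

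Large peaks, beside MCH5, included PHR1, the DNA photolyase (1.03 ± 0.26), MSY1, the mitochondrial tyrosyl-tRNA synthetase (0.96 ± 0.26), ERS1, a homologue of the cystine transporter (0.90 ± 0.20), and AVT2, a member of the vacuolar amino acid transporter family (0.88 ± 0.13). AVT2 read 5.84, 6.03 and 5.997 in the anaerobic arrays, 7.33, 7.73 and 7.34 at 1%, 7.21, 7.39 and 7.13 at 5%, and 6.83, 7.02 and 7.16 at 20%. Its 5% and 20% arrays overlapped by 1 pair of values, and most of its difference was the step from anaerobic cultures (1.40 ± 0.16, against 0.35 ± 0.16 from 20%). CAT5, a hydroxylase of coenzyme Q synthesis which needs oxygen (0.76 ± 0.15), COA1, an assembly factor of cytochrome c oxidase (0.75), APC11, a subunit of the anaphase-promoting complex (0.80 ± 0.15), and RAM1, a subunit of farnesyltransferase (0.78 ± 0.15), also peaked at both levels. From 20% oxygen PHR1 differed by 0.61, MSY1 by 0.80 and ERS1 by 0.35. CAT5, COA1, APC11 and RAM1 differed from it by 0.57, 0.60, 0.64 and 0.33. Each of these genes lay further from anaerobic cultures, as ERS1 (1.44) and PHR1 (1.45) did. Of the 70 peaks, 2 reached a difference of 1.

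In the values as deposited, dips were more and deeper: 90 of the 295 reached a difference of 1. The excess in number depended on processing. With a trend on coding length removed from each array there were 144 peaks and 134 dips, and 109 of each with quantile scaling as well. INO1, inositol-3-phosphate synthase, the first enzyme of inositol synthesis, dipped against both extremes by nearly the same amount. It read 11.32, 11.23 and 11.58 in the anaerobic arrays, 10.75, 10.55 and 9.90 at 1%, 9.78, 9.98 and 9.87 at 5%, and 10.92, 11.48 and 11.34 at 20%. Every intermediate array was below every extreme array, and the 5% arrays were the most uniform. The difference was -1.17 ± 0.17 (adjusted p = 0.0252), with -1.24 ± 0.21 from anaerobic cultures (adjusted p = 0.00269) and -1.11 ± 0.21 from 20% (unadjusted p = 0.000171, adjusted p = 0.108). It was -0.91 ± 0.21 at 1% and -1.44 ± 0.21 at 5%.

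A list of 27 inositol and phospholipid genes was also drawn up after values were seen (median -0.13, and -0.05 without the third 1% array). In it INO1 and 4 others fell (18.5%, against 6.2% of all genes) and none rose. The others were CKI1, choline kinase (-0.98 ± 0.19), PCT1, which makes CDP-choline (-1.06 ± 0.25), PAH1, phosphatidate phosphatase (-0.92 ± 0.22, dim), and URA8, a CTP synthase (-0.92). In these the gap was mainly to anaerobic cultures, with -1.51 ± 0.23 for CKI1 and -1.76 for PCT1, against -0.45 ± 0.23 and -0.35 from 20%. CHO1, phosphatidylserine synthase, and PIS1, phosphatidylinositol synthase, had the opposite sign, 0.48 ± 0.17 and 0.41 ± 0.13, and were not called (adjusted p = 0.0852 and 0.0658). The INO1 regulator genes INO2 (-0.44), INO4 (-0.13) and OPI1 (-0.52) were not called.

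For dips as for peaks, the count of genes without overlap is no separate test. Of the called dips at both levels, 18 had no overlap between the 6 intermediate and 6 extreme arrays, which was so for 23 of all genes (0.422%), and 13 of the 18 were not dim. INO1 was one. BEM1, a scaffold of the cell polarity machinery, read 6.16, 6.36 and 6.03 in the anaerobic arrays, 5.62, 4.72 and 4.89 at 1%, 5.33, 5.21 and 5.79 at 5%, and 6.64, 5.87 and 6.18 at 20%. Its gaps to the extremes were alike, -0.92 ± 0.24 from anaerobic cultures and -0.97 ± 0.24 from 20%, with -0.95 ± 0.20 from their mean (adjusted p = 0.0265). ATM1, the mitochondrial ABC exporter needed for cytosolic iron-sulfur proteins, read 6.38, 6.70 and 6.37 in the anaerobic arrays, 5.98, 5.40 and 5.13 at 1%, 5.59, 5.83 and 5.91 at 5%, and 6.96, 6.01 and 6.89 at 20%. The highest intermediate array, 5.98, lay just under the lowest extreme one, 6.01, and the difference was -0.91 ± 0.20 (adjusted p = 0.0275), with -1.05 ± 0.24 at 1% and -0.78 ± 0.24 at 5%.

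ADE6, an enzyme of purine synthesis, fell by 0.89 ± 0.19 (adjusted p = 0.0273), with differences of -0.90 ± 0.24 from anaerobic cultures and -0.89 ± 0.24 from 20%. It read 10.31, 10.48 and 10.42 in the anaerobic arrays, 9.82, 9.12 and 8.85 at 1%, 9.67, 9.75 and 9.85 at 5%, and 10.41, 9.93 and 10.85 at 20%. The extreme arrays all read 9.93 or more and the intermediate ones 9.85 or less. ADE3, which supplies one-carbon units for purines (-1.22 ± 0.25, adjusted p = 0.0265), and BAS1, an activator of purine and histidine synthesis genes (-0.78 ± 0.21, adjusted p = 0.0423), fell as well. They were the 3 called members of a list of 22 purine and one-carbon genes drawn up after values were seen. Of this list 13.6% fell, against 6.2% of all genes, and its median was -0.22. That median was -0.44 at 1% and 0.00 at 5%, and the third 1% array held the list lowest, 0.77 below the mean over arrays. Over both levels the median was -0.09 without that array and -0.10 after a trend on coding length was removed from each array.

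GUT1, glycerol kinase, the entry step of glycerol use, read 7.02, 6.87 and 6.49 in the anaerobic arrays, 6.24, 5.88 and 6.16 at 1%, 5.76, 5.83 and 6.16 at 5%, and 6.74, 6.26 and 7.02 at 20%. It fell by 0.73 ± 0.17 (adjusted p = 0.0295) and by like amounts against either extreme, -0.79 ± 0.20 and -0.67 ± 0.20. SDH1, the flavin-bearing subunit of succinate dehydrogenase, read 6.62 to 7.22 at intermediate oxygen against 7.23 to 7.98 in the extremes (-0.65 ± 0.16, adjusted p = 0.0357). It was the 1 called gene among 17 of the tricarboxylic acid cycle, whose median was 0.04. The remaining dips without overlap were UTP14 and DBP8 of ribosome assembly, VID24, which takes part in the breakdown of gluconeogenic enzymes, the arrestin gene ALY2, the protein kinase gene PKH3, DGR2 and ULS1. They lay further from anaerobic cultures than from 20%, as in VID24 (-1.18 ± 0.20 and -0.48 ± 0.20).

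**Figure D2:**
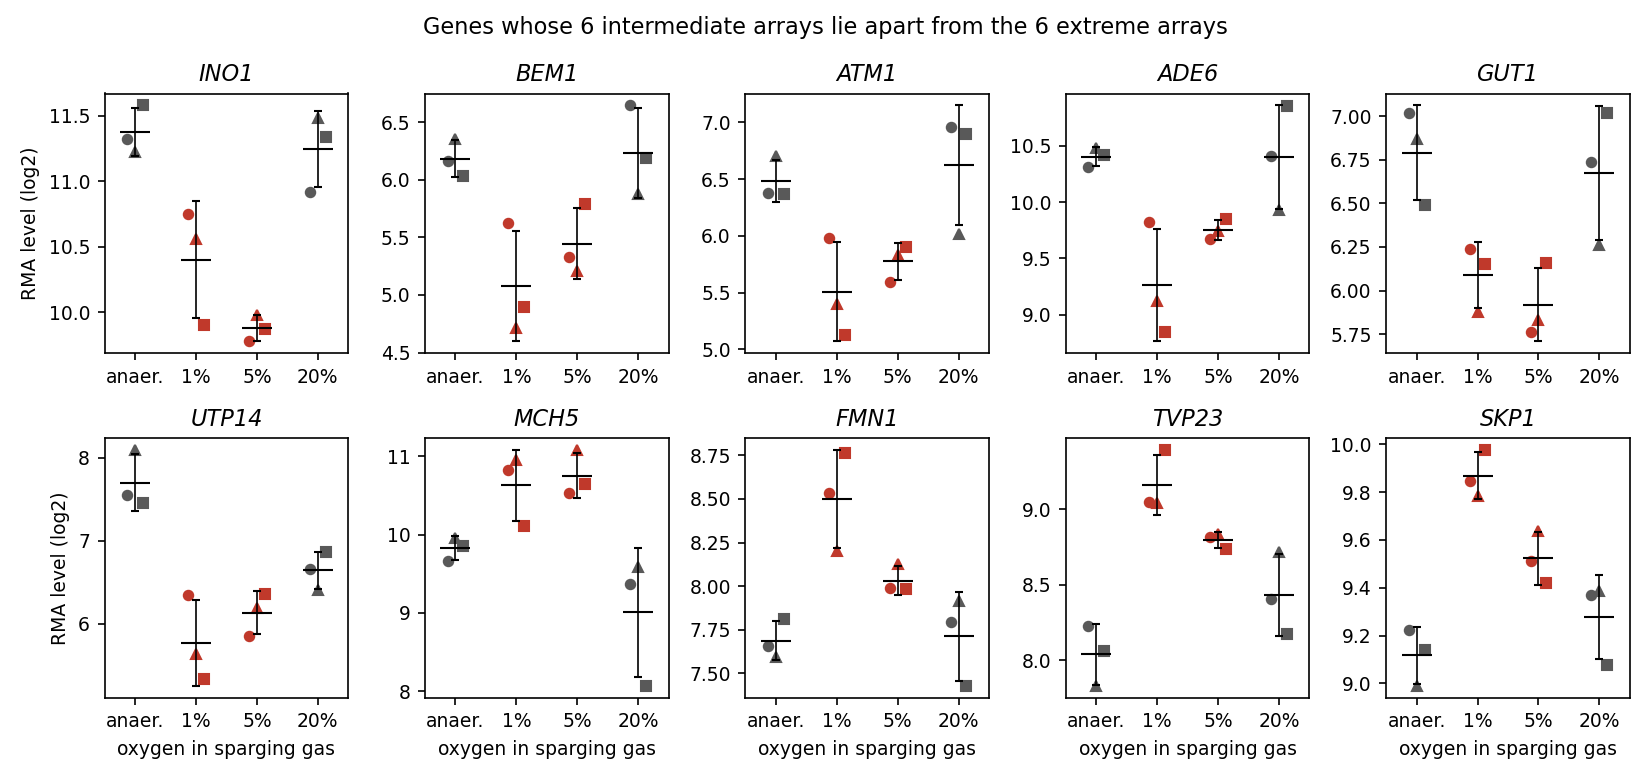
Deposited log2 levels of 10 genes by oxygen in the sparging gas. Circles, triangles and squares are arrays 1, 2 and 3 of a group, red at intermediate oxygen and grey at the extremes, and bars give the mean ± SD of 3 arrays. In each gene the 6 red points lie all below or all above the 6 grey ones. The margin is narrow in all but INO1 and MCH5, and narrowest in TVP23 and GUT1. Vertical axes differ and do not start at 0.

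Of the dips at both levels, that of MIG2, a repressor of glucose-repressed genes, was the largest (-1.67 ± 0.44, adjusted p = 0.0421). It read 8.52, 8.36 and 7.66 in the anaerobic arrays, 7.10, 6.14 and 4.95 at 1%, 3.75, 5.53 and 6.30 at 5%, and 6.87, 5.94 and 6.42 at 20%. The intermediate arrays were spread from 3.75 to 7.10 and overlapped the 20% arrays, and the difference from 20% was -0.78 ± 0.54 (unadjusted p = 0.17). Its relative MIG1 (-1.39 ± 0.37) and MTH1, a regulator in glucose sensing (-1.62 ± 0.40), fell too. They were the other called members of 21 glucose repression regulators, a list drawn up after values were seen. Of this list 14.3% fell, against 6.2% of all genes, and its median was -0.20. That median was -0.05 with the length trend removed, -0.07 after quantile scaling and -0.30 without the third 1% array. From 20% oxygen MIG1 differed by -0.54 ± 0.45 (limma unadjusted p = 0.252), and from anaerobic cultures by -2.25 ± 0.45.

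Among 103 ribosome biogenesis genes, 15 fell and none rose, all 15 with a dip at both levels. This is 14.6% of the list, against 6.2% of all genes. The list as a whole lay lower, with a median of -0.38 and 90 of 103 below 0, against 2759 of all 5449 genes. Its median was -0.485 from anaerobic cultures and -0.252 from 20%. PXR1, of pre-ribosomal RNA processing, read 8.65, 8.86 and 8.50 in the anaerobic arrays, 6.71, 6.38 and 5.68 at 1%, 6.23, 6.58 and 6.997 at 5%, and 7.40, 6.78 and 7.70 at 20%. Its intermediate and extreme arrays overlapped only where the third 5% array exceeded the second 20% array, and it fell by 1.55 ± 0.22 (adjusted p = 0.0252; -2.24 ± 0.27 from anaerobic cultures and -0.86 ± 0.27 from 20%). REI1, of cytoplasmic 60S maturation (-1.62 ± 0.43), KRI1, of 40S assembly (-1.36 ± 0.26), NOP1, fibrillarin (-1.27 ± 0.34), and UTP14 (-1.22 ± 0.20) were others. These lay further from anaerobic cultures (-2.395, -2.015, -1.845 and -1.75) than from 20% (-0.841, -0.703, -0.705 and -0.693). The 1% arrays of REI1 read 5.45, 5.28 and 2.82. UTP14 read 7.56, 8.10 and 7.45 in the anaerobic arrays, 6.35, 5.63 and 5.33 at 1%, 5.85, 6.20 and 6.36 at 5%, and 6.66, 6.41 and 6.86 at 20%.

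The list as a whole did not show the dip alike at both levels: its median was -0.65 at 1% and -0.08 at 5%. The third 1% array held these genes 1.02 below their mean over all arrays, the other 1% arrays 0.02 and 0.27 below it. Without that array the median at 1% was -0.31, and the median over both levels -0.24. Of 36 RNA polymerase I and III genes 5 fell (13.9%, against 6.2% of all genes). Their list median was -0.09, and -0.01 without 5% array 1. Among the 5 were RPA135, a large subunit of polymerase I (-0.84), and RPC53 of polymerase III (-1.46, dim). Of 40 translation factors 6 fell (15%, against the same 6.2%), with RPG1, a subunit of eIF3 (-1.34 ± 0.34), and the eIF4G gene TIF4632 (-0.91). The median of this list was -0.06, and -0.02 without the third 1% array. Of 19 tRNA synthetases 2 fell (10.5%), DPS1 (-1.31) and DED81 (-1.24), and of 128 cytosolic ribosomal protein genes RPL3 alone (-0.65), with a list median of 0.03.

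Among the regulators of the oxygen response, 4 of 17 fell (23.5%, against 6.2% of all genes) and none rose (median -0.29), all with a dip at both levels. CYC8, the corepressor subunit, read 7.45, 7.68 and 7.22 in the anaerobic arrays, 6.22, 5.84 and 5.08 at 1%, 4.77, 5.17 and 5.64 at 5%, and 5.73, 5.64 and 6.31 at 20%. It fell by 1.22 ± 0.22 (adjusted p = 0.0252), with most of the gap to anaerobic cultures (-1.998 ± 0.27) and -0.44 ± 0.27 to 20%. IXR1, a DNA-binding repressor of the hypoxic gene COX5B (-1.29 ± 0.24), SUT1, a regulator of sterol uptake (-1.47 ± 0.30, dim), and ECM22, an activator of sterol genes (-0.78, dim), were the other 3. These 3 lay further from anaerobic cultures (-2.15, -2.01 and -1.07) than from 20% (-0.42, -0.93 and -0.49). SUT1 and ECM22 were also the called members of 13 sterol uptake and mannoprotein genes, whose median was 0.25 at 1% and -0.77 at 5%. TUP1, the partner of CYC8, had -0.69 ± 0.21 (adjusted p = 0.0595), and ROX1 had -1.26 ± 0.65 (adjusted p = 0.209) with anaerobic levels spread over an SD of 1.73. COX5B itself had 0.52 ± 0.17 (adjusted p = 0.075), with means of 8.64 ± 0.40 in anaerobic cultures, 9.27 ± 0.41 at 1%, 8.68 ± 0.09 at 5% and 8.27 ± 0.09 at 20% (SD, n = 3).

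Among chromatin genes, 12 of 66 fell (18.2%, against 6.2% of all genes) and none rose (median -0.28). Those that fell included the remodeller subunits SNF2 and STH1 (both -0.78), RSC2 and RSC8 (both -1.07), and ISW1 (-0.91). Of 26 Mediator and Tup1-Cyc8 genes 4 fell (15.4%), CYC8, PGD1 (-1.04), SIN4 (-0.64) and SSN3 (-0.65). Of 47 actin, polarity and bud site genes 6 fell (12.8%), among them BEM1 and MSB1 (-1.02). The median of these 47 was -0.43, with -0.37 at 1% and -0.51 at 5%. After a trend on coding length was removed from each array these medians were nearer to 0, -0.09 for chromatin and -0.23 for actin and polarity.

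Few lists held genes that rose. Of 45 vacuole and autophagy genes 5 rose and none fell (median 0.14), where 1.47% of all genes rose. Of these 5, 4 peaked at both levels. They were ERS1, AVT2, AVT5 (0.56), RTC2 (0.78 ± 0.18, peak at 1% only) and YPQ2 (0.61), all of transporter families for amino acids or related compounds. In the endoplasmic reticulum list of 47 genes PMT6, a protein mannosyltransferase (0.65 ± 0.13), and ALG14, of N-glycan assembly (0.43), rose, and the chaperone gene SCJ1 fell (-0.85). ERG4, the last step of ergosterol synthesis, rose (0.50 ± 0.13) as the 1 called gene among 26 of its list (median -0.02).

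None of 72 genes for mitochondrial ribosomal proteins was called, but 62 had a positive difference, against 2690 of all 5449 genes. The list median was 0.45 (0.40 at 1% and 0.51 at 5%), and 0.34 to 0.59 with 1 array left out. This list moved with single arrays: the third 20% array was 0.65 below its mean over arrays and the second 0.44 above it. RSM26, the member with the smallest p, had 0.77 ± 0.23 (adjusted p = 0.0598). Of 29 iron uptake genes, 24 had a positive difference and the median was 0.47. The 2 called members, the iron regulator genes AFT1 (-1.07 ± 0.23, dim) and AFT2 (-0.91, dim), fell. The iron list was 1.96 below its mean in the second anaerobic array, and its median was 0.23 without that array. Among ATP synthase genes ATP2 fell (-0.57), while 15 of 17 had a positive difference (median 0.34, and 0.17 without the third 1% array).

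**Figure D3:**
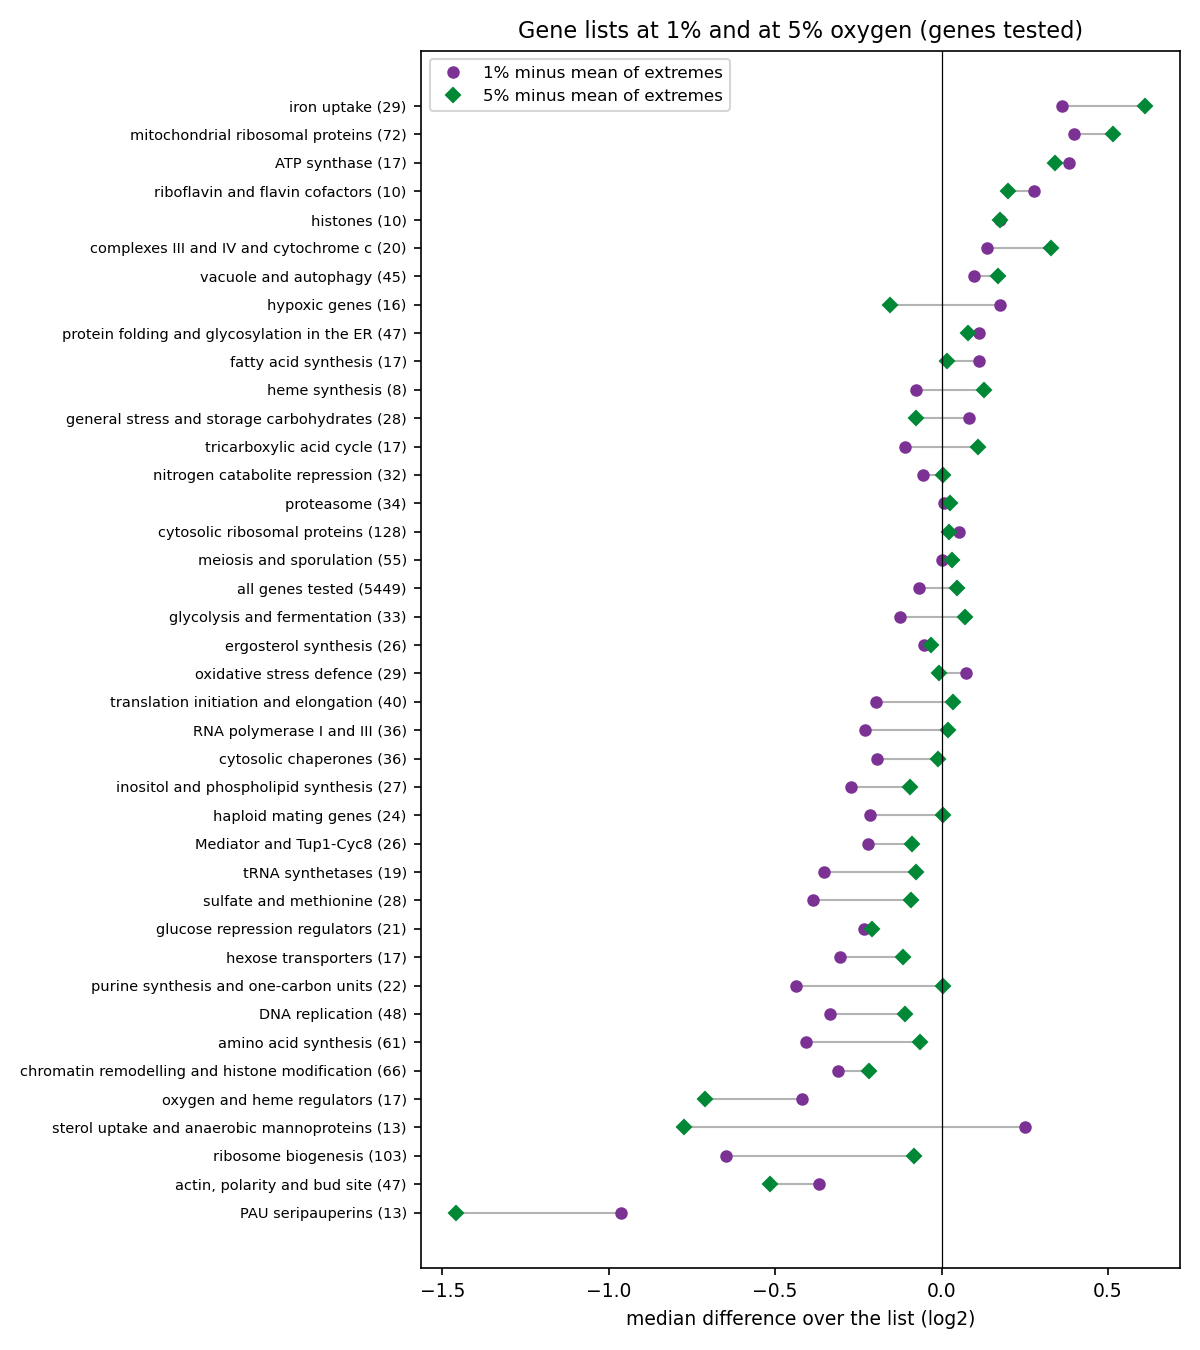
Median difference from the mean of the extremes over each gene list, at 1% oxygen (purple circles) and at 5% oxygen (green diamonds), in log2, with the number of genes tested in brackets. The levels lie far apart for ribosome biogenesis (-0.65 at 1%, -0.08 at 5%) and for sterol uptake and mannoprotein genes (0.25 and -0.77), and close together for glucose repression regulators.

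The remaining lists, apart from fatty acid genes, had calls near or below the share of all genes, of which 6.2% fell. Sulfate and methionine genes had 1 of 28 lower, CYS3 of cysteine synthesis (-1.20), amino acid synthesis had 1 of 61 lower, ARO1 of aromatic amino acids (-0.80 ± 0.19), and the proteasome had 1 of 34 lower, RPN10 (-0.77). Fatty acid genes had 3 of 17 lower (17.6%), with the acyl-CoA synthetase genes FAA4 (-1.13 ± 0.28) and FAA2 (-1.10) and the synthase gene FAS2 (-0.98). Of 32 nitrogen catabolite repression genes 2 fell (6.25%), CAR2 of arginine breakdown (-1.22 ± 0.28) and the GATA factor gene GZF3 (-0.90), and the median was 0.04. Of 48 DNA replication genes 3 fell (6.25%) and 1 rose, and of 36 cytosolic chaperones 2 fell (5.56%), ZUO1 (-1.33 ± 0.32) and STI1 (-0.81). Of 17 hexose transporter genes only MTH1, listed with them as a regulator, was called. No gene was called among glycolysis, heme synthesis, histone, general stress, oxidative stress, cytochrome chain or hypoxic genes. GRE1, a stress-induced hydrophilin gene, had the highest difference of all 5449 genes, 1.83 ± 0.68, but its 1% arrays read 6.14, 7.07 and 10.62, and it was not called (adjusted p = 0.1).

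Markers of other cell states were checked in the same way. Of 24 haploid mating genes, 21 of them dim, AGA1 alone was called (-1.38, dim), and of 55 meiosis and sporulation genes, 48 of them dim, 3 fell (REC107, RED1 and DON1). The mating list stood 0.31 and the sporulation list 0.49 above their means over arrays in the third 1% array, and 0.32 and 0.46 above them in the third 20% array. Their part in the results was not tested.

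A dip at 5% only, with the 1% mean between the extremes, was found in 36 called genes, and a dip at 1% only in 1. The largest named outside the PAU family were CSR1, a phosphatidylinositol transfer protein gene (-1.31 ± 0.31), CAR2 and FAA4. Their intermediate means lay mainly below anaerobic cultures (-2.50 ± 0.38, -2.01 ± 0.35 and -2.41 ± 0.34). From 20% they differed by -0.13 ± 0.38, -0.42 ± 0.35 and 0.15 ± 0.34. CAR2 read 10.77, 10.17 and 10.83 in the anaerobic arrays, 9.49, 8.71 and 9.05 at 1%, 7.48, 7.91 and 8.82 at 5%, and 9.49, 8.16 and 9.34 at 20%. Its 1% and 20% arrays overlapped fully while the 5% arrays were mostly lower, yet 5% minus 1% was not called (-1.02, adjusted p = 0.884). Peaks at 5% only numbered 7, with TMT1, a methyltransferase of trans-aconitate (0.90 ± 0.20), PAD1, needed to turn cinnamic acids into volatile phenols (0.60 ± 0.15), and the cell wall protein gene CWP2 (0.55 ± 0.15). In these the 20% level was as high: TMT1 differed from it by -0.02 ± 0.24. Of 3 peaks at 1% only the named one was RTC2, which differed from 20% by 0.01 ± 0.22.

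The 6 called genes between the extremes at both levels were called for a fall that was already large at 1%. RNR3, a ribonucleotide reductase subunit, averaged 5.12 at intermediate oxygen against 6.27 over the extremes, but its arrays read 8.76, 6.86 and 8.36 in anaerobic cultures, 5.71, 5.49 and 5.49 at 1%, 4.52, 4.93 and 4.58 at 5%, and 4.45, 4.07 and 5.08 at 20%. PHO5, the secreted acid phosphatase, and ICT1, a lysophosphatidic acid acyltransferase, had the same form, with differences of -2.06 ± 0.23 and -1.70 from anaerobic cultures and 0.36 ± 0.23 and 0.40 from 20%. The contrast thus picks up genes that step down early as well as genes that dip.

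PAU genes, a family of near-identical cell wall proteins repressed by oxygen, were of this kind. All 13 were lower at intermediate oxygen than the mean of the extremes and 8 were called, but only 2 of the called dipped at both levels, and the family median was -2.75 from anaerobic cultures and 0.12 from 20%. Signals of near-identical copies cannot be told apart by such probes, so the 13 are not independent. PAU18 averaged 9.51 ± 1.12 in anaerobic cultures, 6.44 ± 0.67 at 1%, 5.90 ± 0.40 at 5% and 6.19 ± 0.41 at 20% (SD, n = 3).

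The classical oxygen genes mostly ran one way and were not called here. HPF1, a cell wall mannoprotein gene, had means of 10.69 ± 0.56, 7.27 ± 0.47, 5.28 ± 1.02 and 4.73 ± 1.35 from anaerobic to 20% oxygen, and a difference of -1.43 ± 0.45 (adjusted p = 0.0636). HEM13, of heme synthesis, stepped down at every level (-0.69 ± 0.29, adjusted p = 0.133). ANB1, the hypoxic form of translation factor eIF5A, had its fall late, with 12.12 ± 0.27, 11.65 ± 0.05, 11.10 ± 0.34 and 9.98 ± 0.25, and its sign was positive (0.33 ± 0.16, adjusted p = 0.176). AAC3, PET9, HAP1, COX5A and UPC2 also lay between the extremes at both levels, while OLE1, ERG11, CYC1, CYC7 and HYP2 left their range by amounts that were not called. Of the 16 hypoxic genes 0 were called, with a median of 0.09 against the mean of the extremes, -0.90 against anaerobic cultures and 0.36 against 20%.

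Peaks and dips differed in the length of their genes. The median coding length, as annotated for the reference strain, was 1815 bases in the 295 dips and 937.5 bases in the 70 peaks, against 1236 bases over all genes. Genes over 2000 bases made up 43.1% of dips and 2.86% of peaks, against 22.5% of all genes. In 4 classes of like size from short to long, 25, 28, 24 and 3 genes were called higher and 23, 64, 93 and 158 lower. Array levels also moved with length: the slope of an array's deviations on log2 length was -0.20 in the third 1% array and 0.18 in the third 20% array, and 0.04 to 0.11 in the anaerobic arrays. With a linear trend on length removed from each array, 338 genes were called, 160 higher and 178 lower, and 250 of the 418 were among them. Dips were also at lower levels, with a median of 5.89 against 7.10 for all genes, and 114 of 295 were dim, with fewer dim among peaks (4 of 70).

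**Figure D4:**
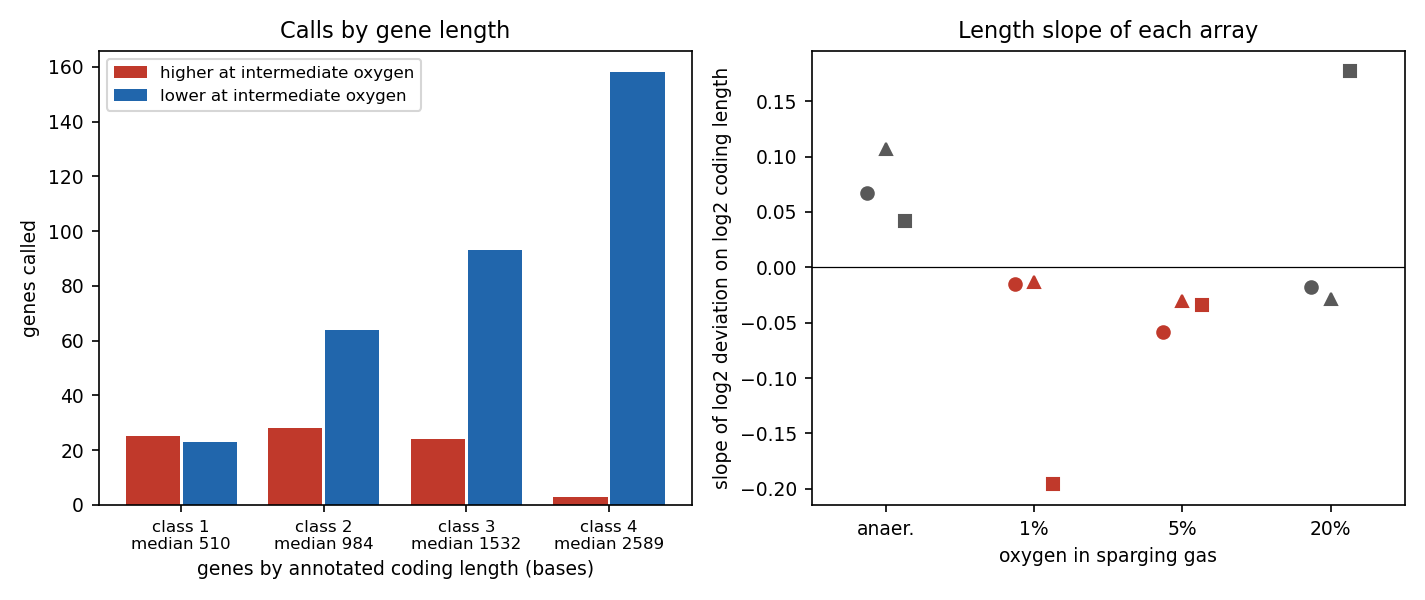
Left, genes called higher (red) or lower (blue) at intermediate oxygen in each of 4 classes of annotated coding length, with the median length of the class in bases; lower calls number 23 in the shortest and 158 in the longest class. Right, the slope of each array's log2 deviation on log2 coding length by oxygen group, with arrays 1, 2 and 3 as circles, triangles and squares.

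The number of calls rested on single arrays. It was 0 on leaving out anaerobic array 2 or 3, 5% array 1 or 2, or 20% array 1 or 3 (limma, 1232 to 1450 genes at an unadjusted p under 0.05, smallest adjusted p 0.0562 to 0.0758). It was 150 without the first anaerobic array, 567, 313 and 268 without 1% arrays 1, 2 and 3, 606 without the third 5% array and 664 without the second 20% array. Without both the third 1% and the first anaerobic array it was 53, of which 40 were among the 418. All 418 genes kept the sign of their difference in each of these fits. They were chosen for a large difference in these same arrays, so a change of sign was hardly possible. INO1 ranged from -1.26 to -1.05 with an array left out and MCH5 from 1.04 to 1.42, with adjusted p up to 0.078 for both. In some arrays the dips were shallow: over the 295 genes the first 1% array was 0.06 and the third 5% array 0.17 below the mean over arrays, and the second 20% array 0.28 below it, within the intermediate range.

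**Figure D5:**
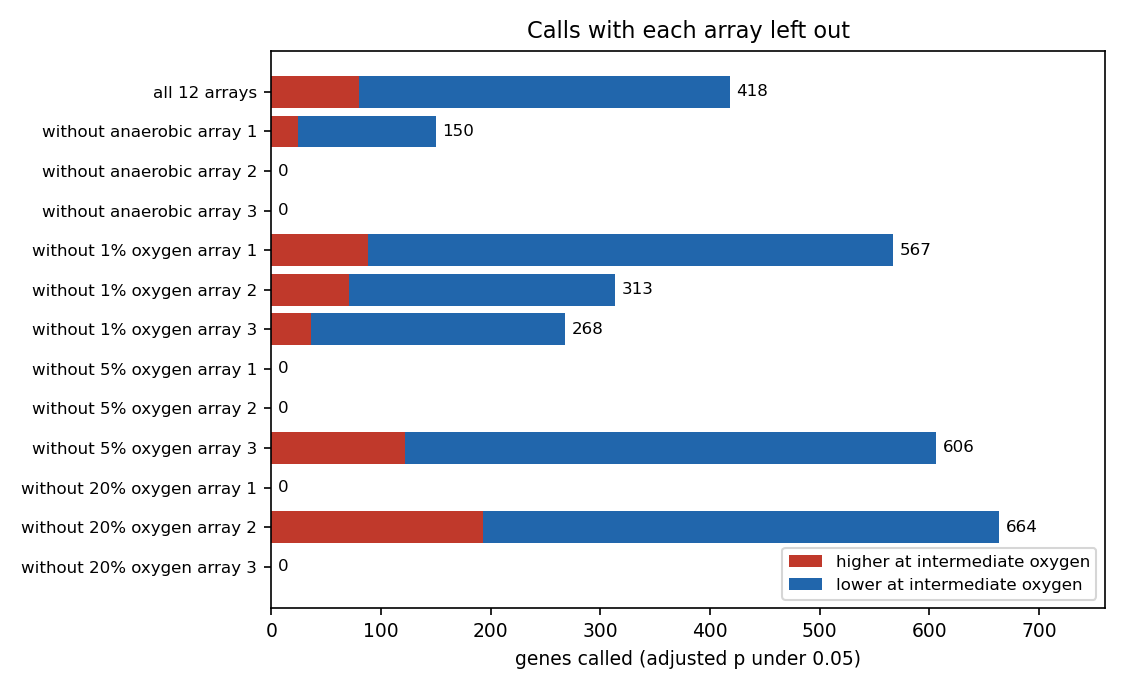
Genes called higher (red) or lower (blue) at intermediate oxygen with all 12 arrays and with each array left out, as counts at a limma adjusted p under 0.05. The count was 418 with all arrays, 0 without any 1 of 6 of them, and 664 without the second 20% array.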

How the data were processed

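RNA of chemostat cultures of S. cerevisiae EC1118 was hybridised to 12 Affymetrix arrays. The deposited table holds log2 levels of 5716 probe sets made with RMA, per the submitters' processing notes; which version or options were used is not given in the sources used here. The log2 scale was read from the range of the values. RMA shrinks differences of dim probe sets, and precision is limited by how few arrays there are. The platform annotation names 1 gene for 5498 of them and none for 218, and 12 symbols were updated through RefSeq's gene table (assembly R64), which also gave coding lengths. For 47 genes with several probe sets the one with the highest mean was kept, which left 5449 genes. The lowest 25% by mean level, under 5.84, are dim, and so is a called gene whose higher side lies under that level.

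A linear model with 1 mean for each of the 4 groups was fitted by limma (version 3.58.1, R 4.3.3; lmFit, then eBayes, with 8 residual degrees of freedom and a prior of 4.11). Contrasts came from that fit, with Benjamini-Hochberg adjustment over all genes. The fit was tested on simulated data. The labels give no batch. Members, gene lists and tests were chosen with earlier results of these data known, and 4 of the lists were added after values of this comparison were seen. The rule for named genes asked for the 12 highest and 12 lowest called genes that peak or dip at both levels, are called against each extreme, do not overlap between arrays, are not dim, have a symbol and are no PAU gene. No gene met it, so the genes without overlap, the largest by size and some pathway partners were named after their values were seen. The rule's other parts take up to 2 called genes each way per list, else the smallest p, up to 3 genes each way of each shape seen at 1 level only, up to 4 between the extremes, and a fixed set of oxygen genes. Alternatives were other scalings, removal of a length trend, probe set, prior and weight settings, a 2-fold minimum, the replicate number as a block and leaving out arrays. Sequences of promoters and proteins were not analysed here.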

Additional observations from a re-analysis of the deposited data

Results flagged for a closer look

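Of the 218 probe sets with no gene name in the annotation, which entered none of the comparisons above, 11 were called when all 5716 probe sets were tested together (5.05%), 6 higher and 5 lower at intermediate oxygen.

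For UPC2 and HYP2, all 1% arrays and all 5% arrays lay on opposite sides of the mean of the extremes, as in 88 of all genes. For UPC2, the activator of sterol uptake, the difference of 5% minus 1% was -0.96 ± 0.33 (limma unadjusted p = 0.0136, adjusted p = 0.884). It ran down through all 4 levels, with means of 7.72, 6.66, 5.70 and 5.09 from anaerobic to 20% oxygen. For HYP2, the aerobic form of eIF5A, 5% minus 1% was 0.27 ± 0.16 (limma unadjusted p = 0.126, adjusted p = 0.884), on means of 11.87, 11.76, 12.02 and 11.96.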

How the results depend on the processing

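The 418 genes kept their sign in every alternative in which they were tested, and no named gene changed sign between the value as reported and an alternative in either of which it was called. For genes chosen by a large difference in these same arrays this was nearly fixed beforehand. Some of the 136 named genes that were not called did change sign, among them ROX1 (-1.72 to 0.11), CYC7 (-0.20 to 0.53) and FET3 (-0.08 to 0.83). The count of calls was 283 with quantile scaling (106 higher, 177 lower), 359 with median scaling (100 higher, 259 lower), 338 with the length trend removed (160 higher, 178 lower), 267 with quantile scaling and the length trend removed, an alternative chosen after seeing the data (120 higher, 147 lower), 253 without dim genes, 671 with array weights, whose estimation gave 1 warning, 107 at 2-fold or more and 53 without both the third 1% and the first anaerobic array. Those with a peak or dip at both levels, 365 as reported, were 238, 218, 213, 551, 92 and 32 under quantile scaling, quantile scaling with the length trend removed, no dim genes, array weights, 2-fold and without those arrays, and 278 with the length trend removed (144 peaks, 134 dips). With an array left out they were 0 to 627, and all calls 0 to 664. The numbers of the arrays do not pair them (same-number correlations -0.317 to 0.358, 2 of 18 pairs over 0.1, 1 array closest to its own number); with the replicate block 106 genes were called, 96 with a peak or dip at both levels. Calls against each extreme were 0 with any array left out and 1, MCH5, with array weights. Calls at 1% were 1, AVT2, with quantile scaling and the length trend removed, and 0 to 90 with an array left out. Calls at 5% were 11 without dim genes, 20 over all probe sets, 1 (INO1) with a trended prior, 624 with array weights, 269 without both arrays and 0 to 325 with an array left out. Against 20% oxygen there were 2 with quantile scaling (ANB1 and FLO1), 1 with median scaling (ANB1), 2 without dim genes and 2 with a trended prior (ANB1 and TIR2 in both), 8 with array weights, 12 without both arrays and 0 to 4 with an array left out. Averaging probe sets, testing all of them, and trended and robust priors gave 419, 428, 420 and 429 calls. The causes of these changes were not tested.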
